A study of Mus musculus with 8 samples.

Results

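The growth hormone, STAT5 and IGF1 axis was followed here through 9 genes in the livers of Brap LKO mice and their floxed controls. The genes were chosen by symbol, namely Ghr, Stat5a, Stat5b, Igf1, Igfals, Socs2, Cish, Bcl6 and Cux2, and each matched 1 of the 24451 genes of the table. Growth hormone reaches the hepatocyte in pulses, binds its receptor and, through the kinase JAK2, leads to phosphorylation of STAT5, which enters the nucleus and binds DNA. The liver answers with IGF1, the main circulating mediator of growth, and with the SOCS proteins, which damp the signal. The timing of the pulses differs between the sexes and sets which sex-biased genes the liver expresses, with BCL6 and CUX2 as sex-biased transcription factors of that program.

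RNA was sequenced from the left lobe of the liver of 8 mice, labelled C57BL/6 and given as C57BL/6J by the study, 18 wk old and fasted for 6 h. In 4 Brap LKO mice (Brap fl/fl; Alb Cre+) the Albumin promoter drove Cre in hepatocytes, and deletion in other liver cells was not measured here. The 4 Brap F/F mice (Brap fl/fl; Alb Cre-), which the labels also call wild type, carry the same floxed alleles without Cre. The study describes its mice as male. The number of reads on genes was between 26280884 and 33313914 in each library, and all values below are normalized counts, that is reads on a gene divided by the liver's DESeq2 size factor.

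The samples were first checked against their labels. Brap itself was at 4042, 4203, 4065 and 3641 normalized counts in Brap LKO replicates 1 to 4 and at 4410, 4235, 3994 and 4106 in Brap F/F replicates 1 to 4. The log2 fold change of Brap was -0.07 (limma adjusted p = 0.631), and 0.01 after quantile normalization. Cre removes only part of the Brap transcript, and a count over the whole gene does not check the genotype. Alb, the defining transcript of hepatocytes, took between 5.17% and 7.41% of the reads in Brap LKO livers and between 6.45% and 9.34% in Brap F/F livers. Its log2 fold change was -0.52 (95% confidence interval -1.63 to 0.60; limma adjusted p = 0.634, DESeq2 0.0584). Ddx3y, a gene of the Y chromosome, was between 1980 and 2735 normalized counts in all 8 livers.

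Brap F/F replicates 2 and 3 stand apart from the other livers in many genes. Selenbp2, a male-biased liver gene, was at 896 and 548 normalized counts in these animals and between 15392 and 28756 in the other 6. Each liver is therefore given by itself, and many results are also given without Brap F/F replicates 2 and 3. The animal numbers in the labels form a lower series, with Brap LKO replicates 1 to 3 and Brap F/F replicate 1, and a higher series with the other 4 livers. The series thus largely goes with the genotype. Fits with the series as covariate separate it from genotype only through Brap LKO replicate 4 and Brap F/F replicate 1.

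At the level of the axis, the receptor, both STAT5 genes and Igf1 differed by no more than 1.47-fold between any pair of the 8 livers. Socs2 had the largest difference between the groups, 486 ± 182 normalized counts in Brap LKO and 178 ± 92.1 in Brap F/F (SD, n = 4 each). Cish and Bcl6 varied more than 8-fold between single livers, in a way that did not follow the genotype. None of the 9 genes passed the threshold used throughout, a limma p adjusted over all 15352 tested genes by Benjamini-Hochberg of under 0.05. At that threshold 102 genes were higher and 16 lower in Brap LKO, which is 0.769% of the tested genes in either direction and 0.664% for the higher ones. Those counts rest on single livers, and the number of higher genes ran from 11 without Brap LKO replicate 1 to 178 without Brap F/F replicate 4. Without Brap F/F replicates 2 and 3 the genes higher numbered 125 and the genes lower 48.

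At an unadjusted p under 0.05, 2 of the 9 genes remained, Igfals and Socs2, where 15.8% of all tested genes did so. The quasi-likelihood test of edgeR on the recovered reads called 0 of the 9, against 0.795% of the tested genes. DESeq2 on the same reads called 1, Socs2, against 4.07%. Without Brap F/F replicates 2 and 3, limma called 0 of the 9 and 1.13% of all tested genes. The values of the 4 Brap LKO livers and the 4 Brap F/F livers overlapped for each of the 9 genes, whereas the groups did not overlap for 9.87% of the tested genes. The fold changes of 6 of the 9 genes lay above 0, with a median of 0.06 beside -0.01 for all tested genes. Ghr, however, moves from below to above 0 under quantile normalization (0.07). Of all 15352 tested genes, 7375 lay above 0 and 7977 below. The shares in this paragraph are also the background for the gene lists below.

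**Figure D1:**
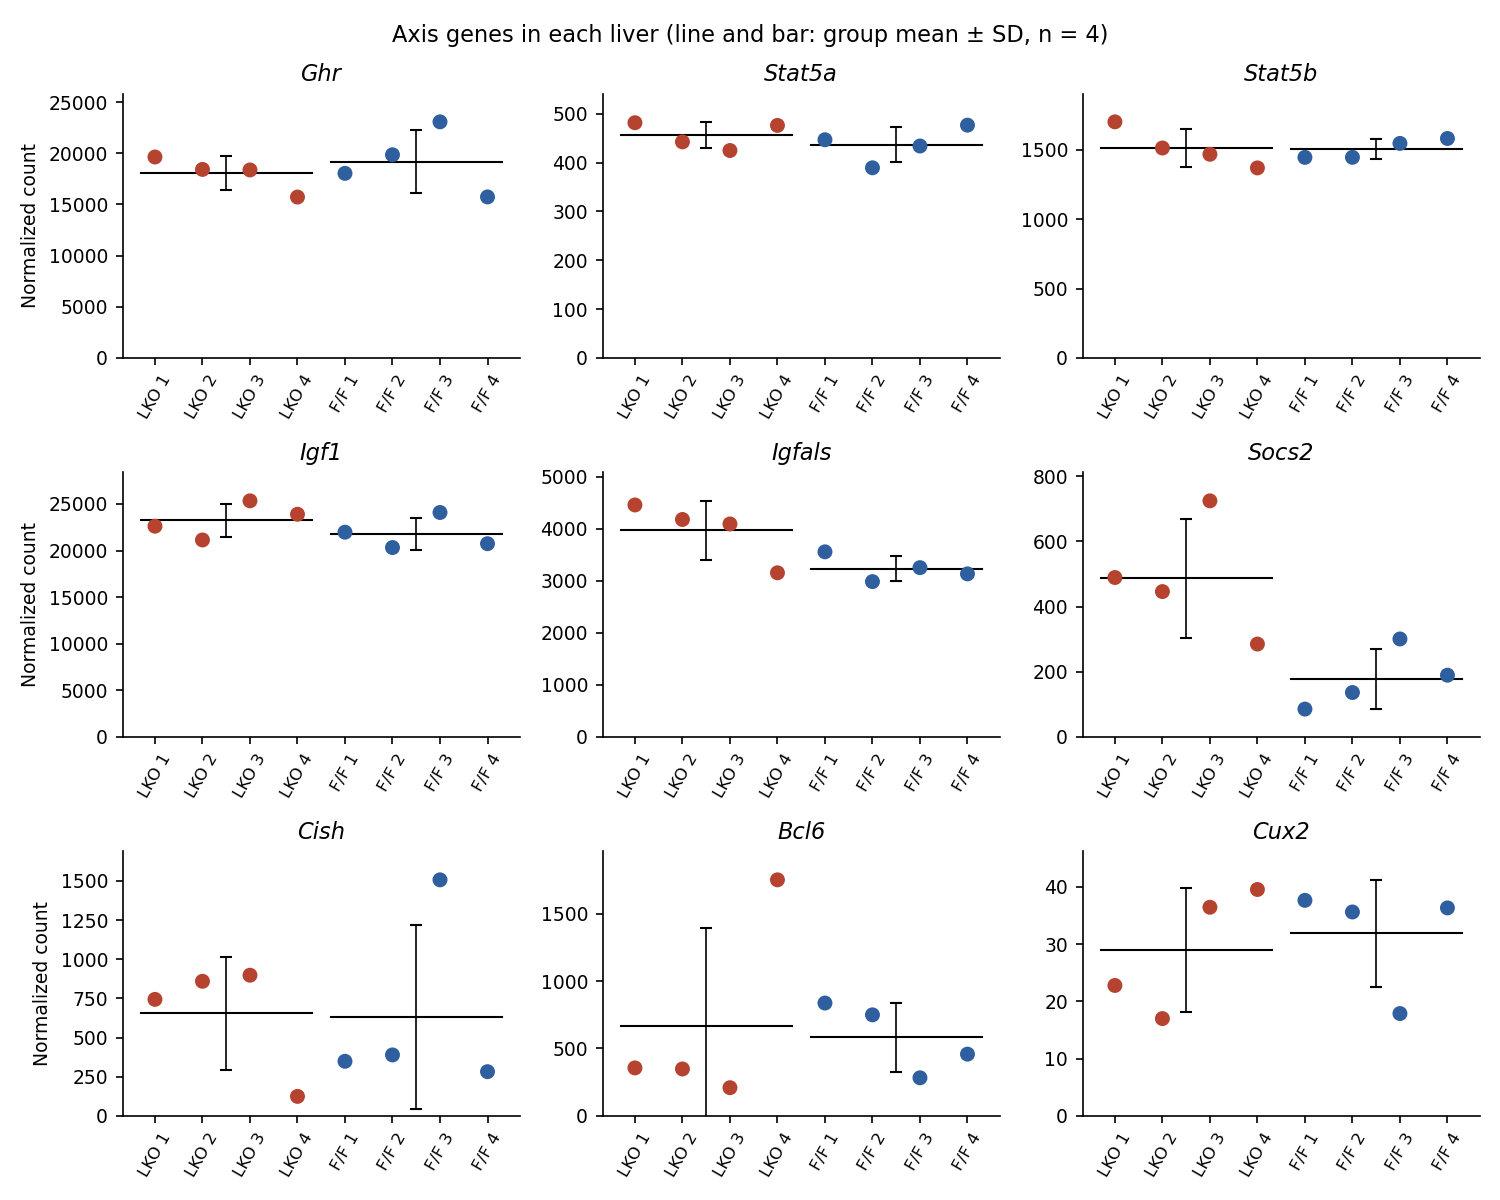
Normalized counts (vertical axes, from 0) of the 9 axis genes in each liver (horizontal axes), with Brap LKO in red, Brap F/F in blue, and lines with bars for the group mean ± SD (n = 4); the bar of Bcl6 in Brap LKO continues below 0. Ghr, both STAT5 genes and Igf1 form flat rows, Socs2 is at 285 or more in each Brap LKO liver, and the highest points of Cish and Bcl6 are Brap F/F replicate 3 and Brap LKO replicate 4.

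Compared per kilobase of annotated exon, the axis ran from one of the abundant hormone transcripts of liver to a barely expressed factor. Igf1 was the most abundant at 2347 ± 181 normalized counts per kilobase in Brap LKO and 2199 ± 171 in Brap F/F (SD, n = 4 each). Ghr followed with 1992 ± 182 and 2118 ± 342, and in Brap F/F these neighbours did not differ beyond their spread. Igfals came next with 1254 ± 179 and 1021 ± 76.7, and then Stat5b with 273 ± 25.1 and 272 ± 12.6. Stat5a, the minor STAT5 transcript of these livers, was at 64.0 ± 3.82 and 61.2 ± 5.09 per kilobase. Cish was at 102 ± 56.2 and 98.5 ± 91.2, and Bcl6 at 99.4 ± 108 and 86.8 ± 38.3, so that neither can be placed above the other or above Stat5a. Socs2 was at 51.0 ± 19.0 and 18.7 ± 9.67, and Cux2 was the lowest at 2.87 ± 1.07 and 3.16 ± 0.928.

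Gh encodes growth hormone itself, which is made in the pituitary. It was at 0 in the 4 Brap F/F livers and at no more than 3.12 normalized counts in any Brap LKO liver, which is at or near the floor that 3 reads set, and no fold was drawn from it. The receptor gene Ghr (chr15:3317760-3583492, minus strand of mm10) was at 19637, 18422, 18370 and 15721 normalized counts in Brap LKO replicates 1 to 4. In Brap F/F replicates 1 to 4 it was at 18039, 19852, 23073 and 15735. The lowest liver of each group was thus at the same level, and Brap F/F replicate 3 was the highest. Its log2 fold change was -0.08 with a 95% confidence interval from -0.36 to 0.21 (limma adjusted p = 0.790), and 0.09 without Brap F/F replicates 2 and 3 or 0.01 without replicate 3 alone.

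Stat5a and Stat5b encode the transcription factors that carry the signal to the nucleus, and lie beside each other on chromosome 11. Stat5b (chr11:100780731-100850724, minus strand), the main form in liver, was at 1701, 1512, 1467 and 1369 normalized counts in Brap LKO and at 1445, 1445, 1545 and 1581 in the Brap F/F livers. Its log2 fold change was 0.00 (95% confidence interval -0.17 to 0.18; limma adjusted p = 0.982), the smallest of the 9, and its sign turned on dropping Brap LKO replicate 1 (-0.05) or, among the controls, replicate 1 (-0.01) or 2 (-0.01), or replicates 2 and 3 together (-0.0036). Stat5a (chr11:100859351-100885169, plus strand) was at 482, 443, 425 and 476 in Brap LKO and at 447, 390, 434 and 477 in Brap F/F. Its interval ran from -0.13 to 0.26 around a log2 fold change of 0.06 (limma adjusted p = 0.735), and without Brap F/F replicates 2 and 3 the value was -0.02. The highest and lowest livers differed 1.24-fold for each STAT5 gene, below the median of 1.42-fold over the 11315 tested genes with a mean of at least 50. Only 72 of the 7133 exon bases of Stat5a lie opposite an exon of Stat3.

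The genes that act along with the receptor in the cell were taken from a list of 15, of which 14 were tested. None passed the threshold with limma or edgeR, 2 had an unadjusted p under 0.05 and DESeq2 called 1, Irs2. Of the 14, 8 lay above 0 and 6 below, with a median log2 fold change of 0.02, or -0.05 without Brap F/F replicates 2 and 3. Irs2, an insulin receptor substrate, was between 847 and 1321 normalized counts in Brap LKO and between 626 and 761 in Brap F/F, groups that did not overlap (log2 fold change 0.55, 95% confidence interval 0.24 to 0.86; limma adjusted p = 0.104, DESeq2 0.0133). Grb10, an adaptor that binds the insulin and IGF1 receptors, had the largest fold change of the list at 0.60 (95% confidence interval 0.14 to 1.05; limma adjusted p = 0.209). Stat3, the most abundant of the list, was at 7279 and 6531 in Brap F/F replicates 1 and 4 and at 3232 and 3051 in replicates 2 and 3, with the Brap LKO livers between 3305 and 5521.

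Igf1 and Igfals are the products through which the axis acts on the rest of the body. Igf1 (chr10:87858265-87937042, plus strand) was at 22610, 21133, 25332 and 23894 normalized counts in Brap LKO. In Brap F/F it was at 21966, 20320, 24081 and 20734. Every liver lay within 1.25-fold of every other, Brap F/F replicates 2 and 3 among them at the lowest and the second highest value of the 8. The log2 fold change was 0.09 with a 95% confidence interval from -0.12 to 0.31 (limma adjusted p = 0.650; two-sided exact permutation p = 0.257; 0.12 without Brap F/F replicates 2 and 3), an interval that leaves out a halving as well as a doubling. The value was 0.24 under quantile normalization, 0.25 at the same total, where the median of all tested genes was 0.15, and 0.05 without Brap LKO replicate 3.

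Igfals encodes the acid labile subunit that holds IGF1 in a long-lived complex in plasma. It lies at chr17:24865997-24882010 on the plus strand. It was at 4460, 4180, 4094 and 3155 normalized counts in Brap LKO and at 3558, 2986, 3255 and 3135 in Brap F/F. Brap LKO replicates 1 to 3 were above each Brap F/F liver, and Brap LKO replicate 4 fell among them. The log2 fold change was 0.29 ± 0.11 (SE), with a 95% confidence interval from 0.04 to 0.54. It did not pass the correction over all genes (limma adjusted p = 0.259; two-sided exact permutation p = 0.0857). With the animal series as a covariate the value was 0.13, without Brap F/F replicates 2 and 3 it was 0.24, and the sign held in each of the 21 alternatives.

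The other IGF ligands, receptors, binding proteins and proteases form a list of 15 genes, of which 13 were tested. Igfbp7 was the 1 gene of these past the threshold, and 7 of the 13 lay above 0, with a median of 0.06. Without Brap F/F replicates 2 and 3 that median was 0.58 and 2 genes passed. Igfbp7, a secreted IGF binding protein found in vessel walls and stellate cells, was at 2572, 2193, 2617 and 2399 normalized counts in Brap LKO and at 1220, 1739, 1761 and 1533 in Brap F/F. The groups did not overlap, and the log2 fold change was 0.66 ± 0.12 (SE; limma adjusted p = 0.0481, edgeR 0.0452, DESeq2 0.00021). Leaving out any one liver ended the call (limma adjusted p between 0.0554 and 0.165) with log2 fold changes of 0.54 to 0.72. A minimum mean of 20 (limma adjusted p = 0.0542) and the replicate number as a block (limma adjusted p = 0.0771) also ended the call, at an unchanged 0.66. The call held without Brap F/F replicates 2 and 3 together (0.83; limma adjusted p = 0.0228). Igfbp4, the most abundant of the list by count, lay between 54423 and 63058 in the 8 livers, and the receptor gene Igf1r between 86.7 and 195, both named after their values were seen.

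Socs2 and Cish are classical targets of STAT5 whose products bind the receptor complex and damp it. Socs2 (chr10:95385362-95417180, minus strand) was at 489, 446, 724 and 285 normalized counts in Brap LKO replicates 1 to 4. In Brap F/F replicates 1 to 4 it was at 85.5, 136, 301 and 189. Apart from Brap LKO replicate 4 lying just under Brap F/F replicate 3, each knockout liver was above each control liver, and the ratio of the means was 2.73. The log2 fold change was 1.51 ± 0.38 (SE) with a 95% confidence interval from 0.66 to 2.37, which lies above 0. It fails the correction over all tested genes with limma (adjusted p = 0.108) and edgeR (adjusted p = 0.110) and passes it with DESeq2 (adjusted p = 0.00461) and, with limma, after scaling to the same total (adjusted p = 0.0460), which moved the median of all tested genes to 0.15. Across the 21 alternatives the fold change ran from 1.21 to 1.85 and the adjusted p from 0.00461 to 0.281. The two-sided exact permutation p was 0.0571, where the 70 arrangements of 4 livers against 4 allow no value under 0.0286. Without Brap F/F replicates 2 and 3 the fold change was 1.85 (limma adjusted p = 0.0670).

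Cish did not show the order of the groups that Socs2 had. Cish (chr9:107296026-107302784, plus strand) was at 744, 860, 898 and 125 normalized counts in Brap LKO and at 349, 390, 1507 and 283 in Brap F/F. The highest liver, Brap F/F replicate 3, was 12.1-fold above the lowest, Brap LKO replicate 4, so its extremes were a control liver at the top and a knockout liver at the bottom. The group means were 657 ± 361 and 632 ± 585 (SD, n = 4 each), and the log2 fold change was 0.08 with a 95% confidence interval from -1.50 to 1.66 (limma adjusted p = 0.966). An interval of that width leaves a doubling or a halving undecided, and the sign changed when any one of Brap LKO replicates 1 to 3 was left out, or any of Brap F/F replicates 1, 2 and 4 (-0.19 to -0.03). It was 0.76 without Brap LKO replicate 4, 0.62 without Brap F/F replicate 3, 0.72 without Brap F/F replicates 2 and 3, and -0.44 with the animal series as covariate. Part of the Cish exons, 479 of 6419 bases, lies opposite an exon of Gm17041, and reads of such a pair cannot be told apart without strand.

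Bcl6 encodes a repressor that competes with STAT5 for DNA and is more abundant in male than in female liver. Bcl6 (chr16:23965052-23988852, minus strand) was at 356, 348, 209 and 1750 normalized counts in Brap LKO and at 837, 750, 283 and 458 in Brap F/F. Brap LKO replicate 4 was far above the rest, 8.36-fold over Brap LKO replicate 3. The log2 fold change was -0.21 (95% confidence interval -1.57 to 1.15; limma adjusted p = 0.889). Its direction is not set by the data, since edgeR (0.21) and DESeq2 (0.20) gave the opposite sign, as did the ratio of the mean counts (1.14). In limma it was 0.17 without Brap LKO replicate 3, 0.01 when Brap F/F replicate 1 was dropped, -0.42 without Brap F/F replicates 2 and 3, and -0.85 without Brap LKO replicate 4.

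Cux2 encodes a homeobox factor that is largely confined to female liver and represses male-biased genes there. Cux2 (chr5:121856366-122050102, minus strand) was at 22.8, 17.0, 36.4 and 39.5 normalized counts in the Brap LKO livers. It was at 37.6, 35.6, 17.9 and 36.3 in the Brap F/F livers. All 8 livers were thus within 2.33-fold of each other at a low level, and Brap F/F replicates 2 and 3 were on opposite sides of that range. The log2 fold change was -0.15 (95% confidence interval -0.90 to 0.60; limma adjusted p = 0.847), -0.42 without Brap F/F replicates 2 and 3, and 0.06 when Brap LKO replicate 2 was dropped.

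**Figure D2:**
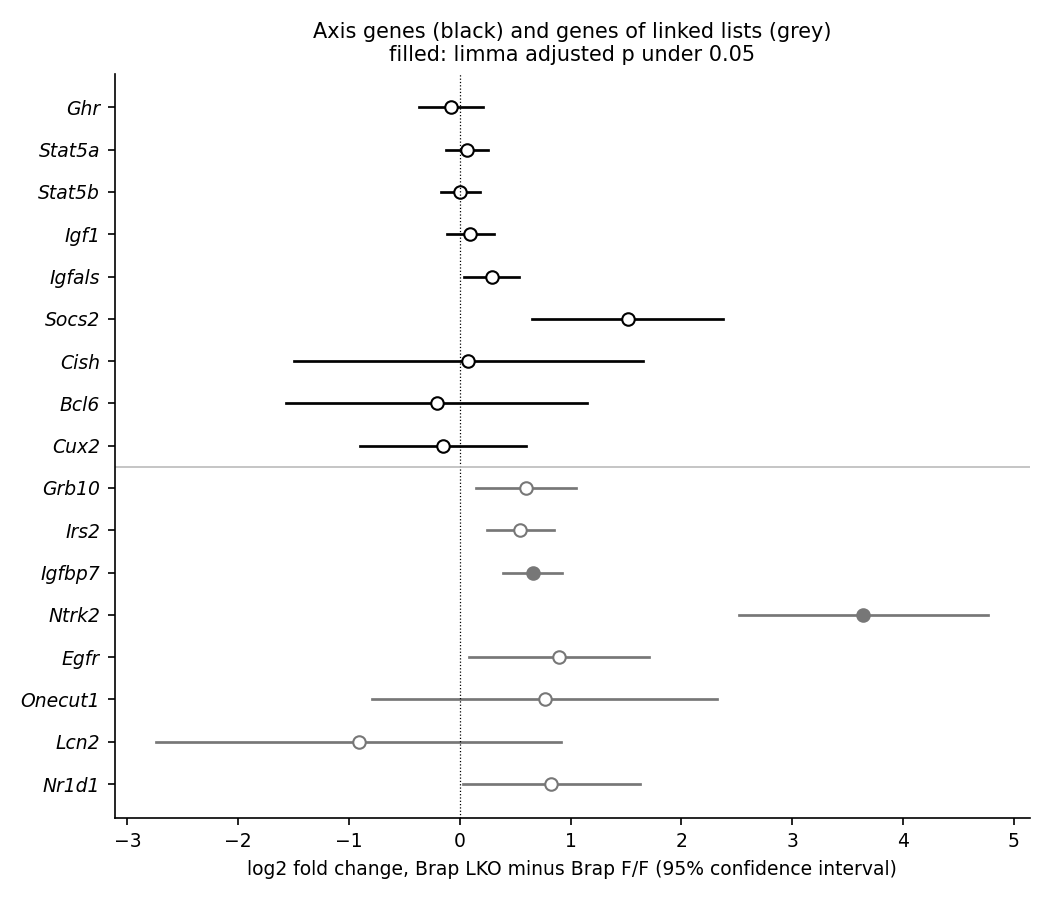
log2 fold change of Brap LKO over Brap F/F (horizontal axis) with its 95% confidence interval from limma, for the 9 axis genes in black and for genes of the linked lists in grey; filled points have an adjusted p under 0.05 over all tested genes. Among the axis genes the intervals of Igfals and Socs2 lie above 0 and no point is filled, while Igfbp7 and Ntrk2 are filled.

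The 3 targets or repressors that varied most over the 8 livers were Cish, Socs2 and Bcl6, with a standard deviation of 1.15, 1.02 and 0.99 on the log2 scale. Their highest-to-lowest ratios exceeded those of 99.1% to 99.4% of the tested genes with a mean of at least 50. Ranked from high to low, the 4 livers with the most Cish were Brap F/F replicate 3 and Brap LKO replicates 3, 2 and 1. The 4 livers with the least Bcl6 were the same ones, with Brap LKO replicate 3 lowest. The liver with the least Cish, Brap LKO replicate 4, had the most Bcl6. Brap F/F replicates 2 and 3 do not form a pair in this order, because replicate 3 had the most Cish of all 8 livers and replicate 2 came below those 4. Of the lower animal series, Brap F/F replicate 1 was on the other side from Brap LKO replicates 1 to 3, and of the higher series Brap F/F replicate 3 was on the other side from the rest.

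The gene whose liver profile was nearest to that of Cish was Onecut1, also a target of growth hormone in liver and the gene of the factor HNF6. Over the 8 livers its root mean square difference from Cish was 0.51 on the log2 scale after each gene's mean was removed, where the median of the 11314 genes compared was 1.08. Onecut1 was at 2269, 1713, 1924 and 352 normalized counts in Brap LKO and at 584, 352, 2448 and 621 in the Brap F/F livers. Its 4 highest livers were the 4 highest of Cish, which a choice by nearness to Cish makes likely. Aacs, an acetoacetyl-CoA synthetase, and Cyp2a5, a cytochrome P450, came next at 0.55 and 0.60.

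The genes nearest to Socs2 were Papln (0.43), Htra1 (0.43) and Ltbp1 (0.45), which encode extracellular proteins, against a median of 0.98. A choice by nearness to Socs2 makes higher values in Brap LKO likely for these genes, so their fold changes and calls are not independent of it. Htra1, a secreted protease, was at 115, 65.4, 110 and 106 normalized counts in Brap LKO and at 19.4, 27.5, 42.0 and 38.3 in Brap F/F, and it passed the threshold (log2 fold change 1.64 ± 0.28, SE; limma adjusted p = 0.0374). That call was lost when Brap LKO replicate 1, 3 or 4 was dropped, and likewise for Brap F/F replicate 1, 2 or 3, with limma adjusted p between 0.0539 and 0.146 and log2 fold changes of 1.43 to 1.79. It was also lost under quantile normalization (1.48, limma adjusted p = 0.0579) and with the replicate number as a block (1.64, limma adjusted p = 0.0508). It held without Brap F/F replicates 2 and 3 together (1.79; limma adjusted p = 0.0456). Ltbp1, a binding protein of latent TGF-beta, had a log2 fold change of 1.27 (limma adjusted p = 0.0584, edgeR 0.0491, DESeq2 0.0000897, and 0.0442 with limma without Brap F/F replicates 2 and 3), and Papln one of 0.86 (limma adjusted p = 0.167, DESeq2 0.0476). The genes nearest to Bcl6 were Gjc3 (0.50), Mycn (0.59) and Tubb2a (0.63), against a median of 0.95. Each had its highest value in Brap LKO replicate 4, at 152, 124 and 752, which a choice by nearness to Bcl6 makes likely.

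**Figure D3:**
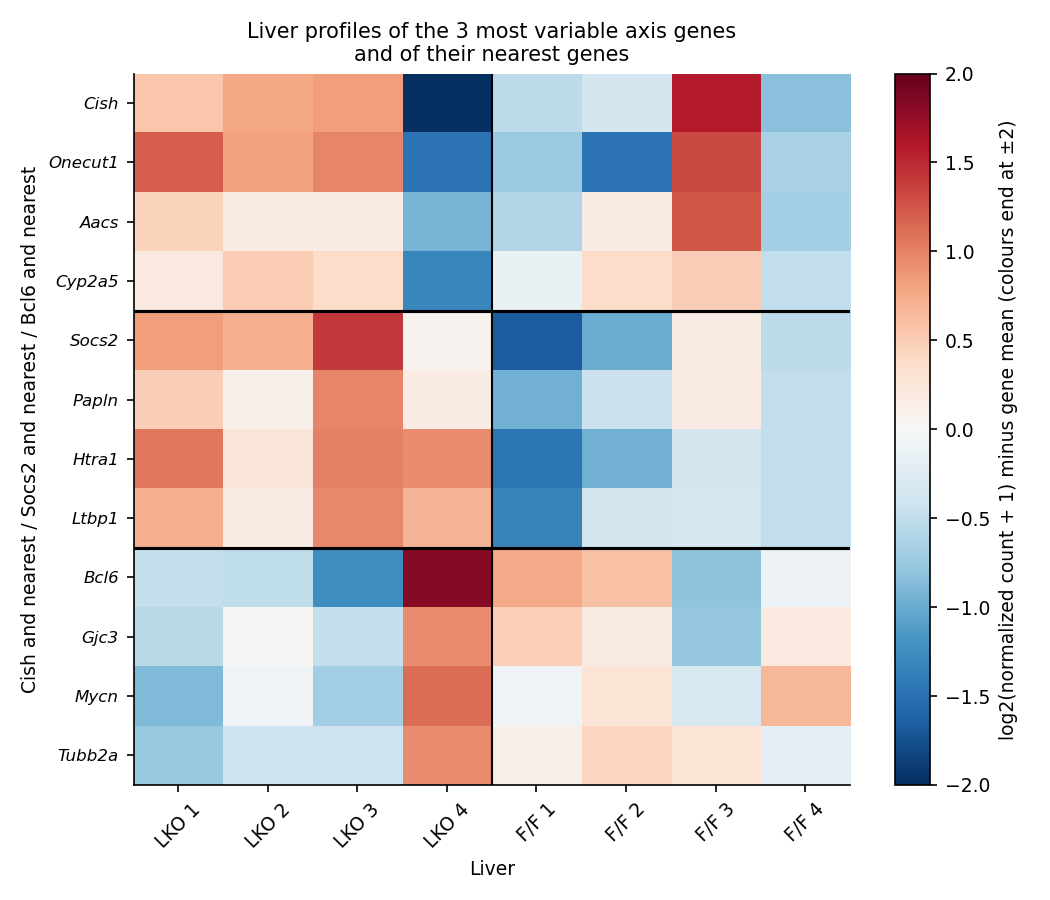
Liver profiles of Cish, Socs2 and Bcl6, each above the 3 genes nearest to it, with livers as columns and colour for log2(normalized count + 1) minus the gene's mean over the 8 livers; colours end at ±2. Cish and Onecut1 are high in Brap LKO replicates 1 to 3 and Brap F/F replicate 3, and Bcl6 is low in those 4 livers and peaks in Brap LKO replicate 4. Socs2 and its neighbours are split more by genotype, which a choice by nearness to Socs2 makes likely for the neighbours.

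STAT5 binds as a dimer to the palindrome TTCNNNGAA, which reads the same on both strands, and the promoter windows of the axis genes were searched for these letters because 3 of its targets or repressors varied most. The windows, from RefSeq on GRCm38.p6, run from 250 bases before to 50 bases after an annotated start. Of the 9 genes, 8 matched an entry by symbol, with 15 windows in all, and Socs2 did not. The motif was in 5 of the 15 windows, those of Igfals, Cish and Bcl6, and in 8.30% of the 32851 windows of all genes. It was not in the windows of Ghr, Stat5a, Stat5b, Igf1 or Cux2, which says only that these letters are not in those stretches. The stretches with a match are given below from 5′ to 3′ on the strand of the gene, with the motif in capitals.
Cish, chr9:107296654-107296683, plus strand, 2 matches from the annotated start onward in an exon: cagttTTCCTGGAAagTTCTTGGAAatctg
Bcl6 first start, chr16:23988947-23988985, minus strand, 1 match upstream of the gene: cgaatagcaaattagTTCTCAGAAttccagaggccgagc
Bcl6 second start, chr16:23981348-23981466, minus strand, 3 matches in an intron of the gene: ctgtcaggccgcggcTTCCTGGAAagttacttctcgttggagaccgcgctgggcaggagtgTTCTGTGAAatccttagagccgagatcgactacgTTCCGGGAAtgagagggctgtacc
Igfals first start, chr17:24877594-24877631, plus strand, 1 match in an intron: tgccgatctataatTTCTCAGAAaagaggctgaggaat
Igfals second start, chr17:24878158-24878196, plus strand, 1 match in an intron: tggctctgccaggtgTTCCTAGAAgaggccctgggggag

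Cish, with the widest range between livers, has a pair of matches that begin 11 bases apart. The matches of Bcl6 begin 168, 122 and 88 bases before its second start and 118 before its first. Igfals, whose livers stayed within 1.49-fold, also has matches, 236 and 58 bases before its first and second start. The TTCCTGGAA of Cish and that of Bcl6 are the same 9 letters although the genes were high in different livers. No binding was measured in these samples.

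**Figure D4:**
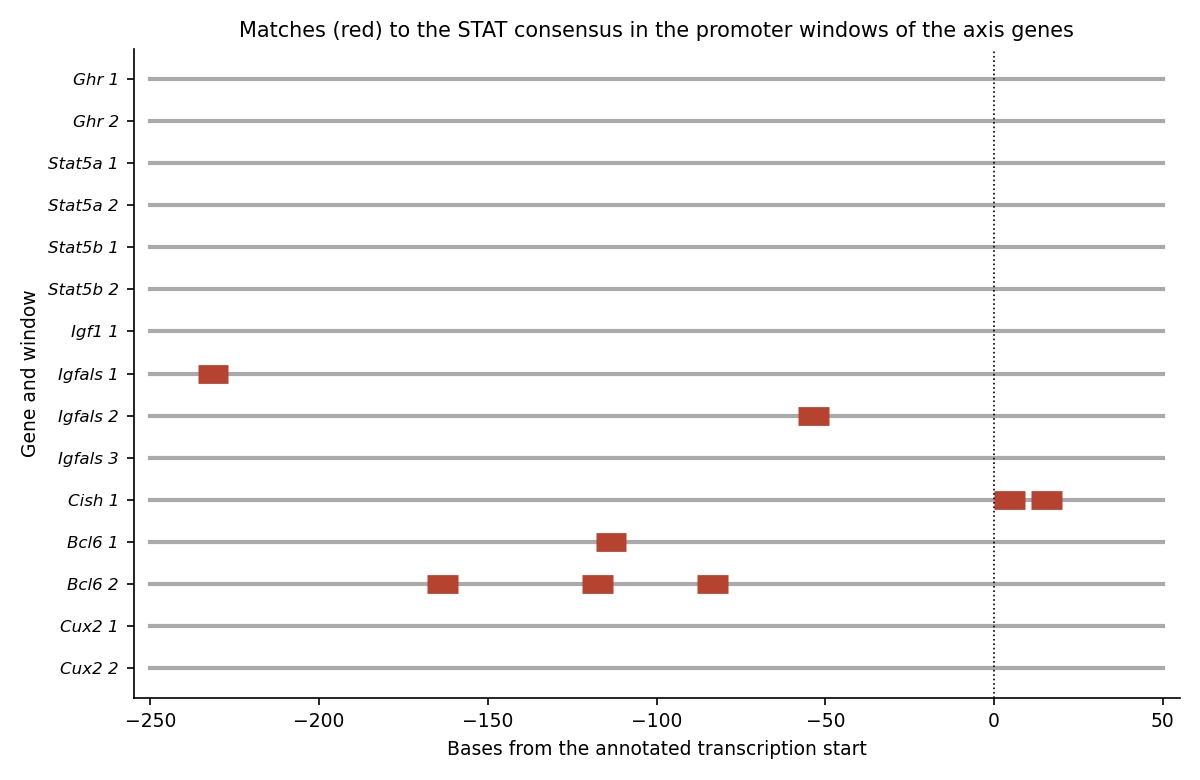
Positions of the letters TTCNNNGAA (red) in the 15 promoter windows of 8 axis genes (grey lines, named by gene and window), by distance in bases from the annotated transcription start (dotted line). The 5 windows with a match belong to Igfals, Cish and Bcl6, and the second window of Bcl6 holds 3.

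Sex-biased genes are the best known readout of growth hormone pulses in liver. Of 17 male-biased genes none passed the threshold with limma, edgeR or DESeq2, and 5 had an unadjusted p under 0.05, against 15.8% of all tested genes. Of the 17, 14 lay above 0, with a median log2 fold change of 0.64, but without Brap F/F replicates 2 and 3 that median was 0.06, with 1 gene past the threshold in each direction. Brap F/F replicate 3 was the lowest of the 8 livers for 10 of the 17 genes and replicate 2 for 3, where they were lowest for 13.1% and 15.6% of all tested genes. Moxd1, a monooxygenase-like gene, was at 434, 2374, 717 and 3327 normalized counts in Brap LKO and at 629, 1.02, 1.05 and 1424 in the Brap F/F livers, with 1 read each in replicates 2 and 3. Its log2 fold change of 4.84 (95% confidence interval 0.05 to 9.62; limma adjusted p = 0.312) was 0.40 without those livers. With all 8 livers edgeR gave 1.75 and DESeq2 1.74. Selenbp2 had a log2 fold change of 2.37 (limma adjusted p = 0.360), against 0.83 with edgeR and 0.82 with DESeq2. Without Brap F/F replicates 2 and 3 its limma value was -0.11. Serpina1e, the most abundant by count and one of a family of near-identical genes whose reads may be split between copies, was at 62894 and 24668 in these animals and between 175546 and 319969 in the others. Mup20 and Cyp4a12b were chosen after their values were seen. Mup20 was between 33302 and 37926 in Brap LKO and at 22114, 10503, 7995 and 32017.5 in Brap F/F, groups that did not overlap (log2 fold change 1.21, limma adjusted p = 0.180). Cyp4a12b was lowest in Brap F/F replicate 4, at 931 (log2 fold change 0.56, limma adjusted p = 0.168).

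Not all male-biased genes were low in Brap F/F replicates 2 and 3. Elovl3, which like Cyp2d9 was chosen after its values were seen, was highest in Brap F/F replicates 2 and 3, at 5237 and 3396 normalized counts against 1381 to 2753 in the other livers. Cyp2d9 was at 32681 and 31084 in these animals and between 25120 and 37600 in the rest.

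Of 20 female-biased genes, 18 were in the table and 15 were tested. Ntrk2 was the 1 gene past the threshold with limma and with edgeR, and 4 had an unadjusted p under 0.05. DESeq2 called 4, in both directions, against 4.07% of all tested genes. Ntrk2 (DESeq2 log2 fold change 3.33) and Cyp2c40 (1.67) were higher in Brap LKO, and Cyp2b9 (-4.24) and Cyp2b10 (-2.89) were lower. Of the 15, 8 lay above 0, with a median of 0.03, and of 0.59 without Brap F/F replicates 2 and 3. Ntrk2, a neurotrophin receptor, was at 648, 759, 556 and 531 normalized counts in Brap LKO and at 27.4, 88.5, 114 and 19.6 in Brap F/F. Each knockout liver was well above each control liver, with a log2 fold change of 3.64 ± 0.50 (SE; limma adjusted p = 0.0180), and the limma adjusted p was between 0.0540 and 0.0740 when a Brap LKO liver was left out (3.55 to 3.72). The call held when any one Brap F/F liver was left out (0.0115 to 0.0494) and without Brap F/F replicates 2 and 3 (4.68; limma adjusted p = 0.000057). Cyp2b9, chosen after its values were seen, was at 831 and 2406 in Brap F/F replicates 2 and 3 and between 10.8 and 84.4 in the other livers. Cyp2c40, likewise, was at 11.2 and 10.5 there, at 35.3 and 26.5 in the other Brap F/F livers and between 49.2 and 90.5 in Brap LKO, groups that did not overlap (log2 fold change 1.75; limma adjusted p = 0.0864, DESeq2 0.00217). Near-identical copies may share reads in both Cyp families.

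**Figure D5:**
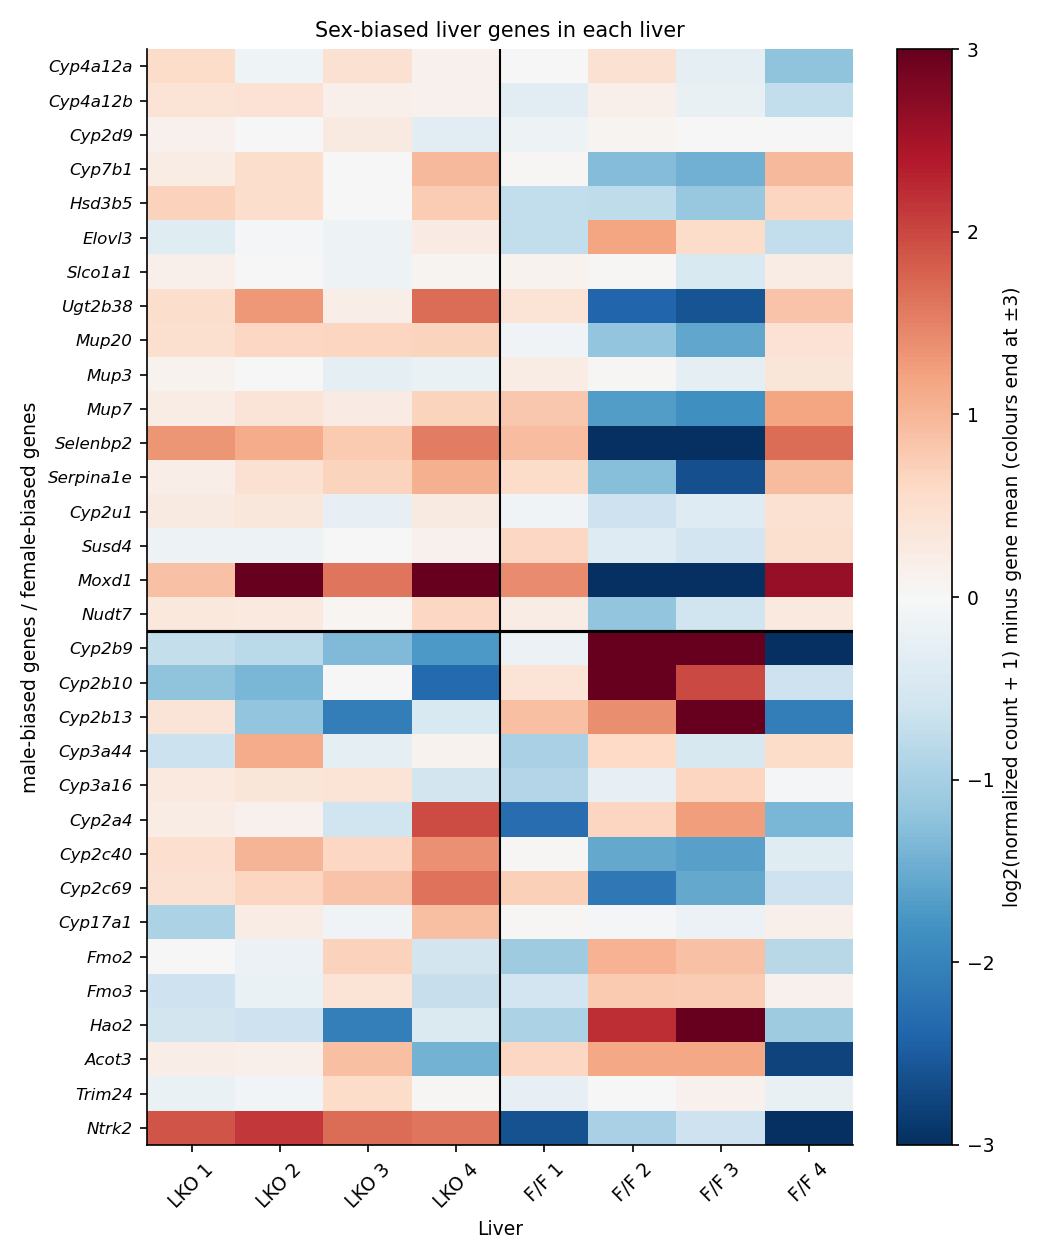
The 17 tested male-biased genes (above the line) and the 15 tested female-biased genes (below) in each liver (columns), coloured by log2(normalized count + 1) minus the gene's mean over the 8 livers; colours end at ±3. Brap F/F replicates 2 and 3 are lowest for Selenbp2, Moxd1, Mup7 and Ugt2b38 and highest for Cyp2b9, and Ntrk2 divides the livers by genotype.

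Among the axis genes Brap F/F replicates 3 and 2 were the highest and second highest livers for Ghr, and for none of the 9 were they the 2 lowest. Of the 9, Brap F/F replicate 2 was the lowest liver for 3 and replicate 3 for 0, while Brap LKO replicate 4 was the lowest for 3. Brap F/F replicate 3 was also the highest for Cish. Bcl6 was at 750 in replicate 2 and 283 in replicate 3, whereas Selenbp2, Moxd1 and Serpina1e were low in both.

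Of 8 other genes that respond to growth hormone or STAT5 in liver, none passed with limma or edgeR, 2 had an unadjusted p under 0.05 and DESeq2 called 1, Lifr, the receptor of leukemia inhibitory factor. Of the 8, 7 lay above 0, with a median of 0.12, or 0.28 without Brap F/F replicates 2 and 3. Egfr, the epidermal growth factor receptor, had the largest fold change at 0.90 (95% confidence interval 0.08 to 1.71; limma adjusted p = 0.281), and one of 0.19 without Brap F/F replicates 2 and 3. It was at 8809 and 9949 normalized counts in Brap F/F replicates 2 and 3, at 20205 and 31141 in the other Brap F/F livers and between 23953 and 32462 in Brap LKO. Onecut1 followed at 0.77 (limma adjusted p = 0.611), with 0.27 under the animal series as covariate, 0.41 to 1.39 when 1 liver was left out and 1.08 without Brap F/F replicates 2 and 3. Lifr was at 0.76 (95% confidence interval 0.29 to 1.22; limma adjusted p = 0.133, DESeq2 0.0229). Its counts were 10179, 5899, 6790 and 10969 in Brap F/F replicates 1 to 4 and between 10895 and 15522 in Brap LKO. Serpina3k, the most abundant by count, was between 165789 and 289974 in the 8 livers.

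Fasting, inflammation and the time of day each act on this axis, and genes of these programs were read in the same livers. None of 10 fasting response genes passed with limma, edgeR or DESeq2, with 1 at an unadjusted p under 0.05, and 9 of the 10 lay below 0 with a median of -0.39, or -0.05 without Brap F/F replicates 2 and 3. Cyp4a14, a PPAR-alpha target, was at 45700 and 31815 normalized counts in Brap F/F replicates 2 and 3, at 9235 and 707 in replicates 1 and 4 and between 1323 and 3965 in Brap LKO (log2 fold change -2.01; limma adjusted p = 0.415). Without Brap F/F replicate 4 its value was -3.27 and passed (limma adjusted p = 0.0347), and without replicates 2 and 3 it was -0.06. Lpin1, a phosphatidate phosphatase, was at 43137 and 48237 in these animals and between 8868 and 17788 in the rest (log2 fold change -0.88; limma adjusted p = 0.430; 0.12 without them). Pck1, a key enzyme of gluconeogenesis and the most abundant by count, was between 89009 and 197358.

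None of 8 acute phase genes passed with limma, edgeR or DESeq2, and 0 had an unadjusted p under 0.05. Brap F/F replicate 4 was the highest liver for all 8. The median log2 fold change was -0.19, and -1.22 without Brap F/F replicates 2 and 3. Lcn2, lipocalin 2, was at 192, 396, 422 and 1017 normalized counts in Brap LKO and at 1705, 338, 235 and 3025 in Brap F/F (log2 fold change -0.91; limma adjusted p = 0.608), with -2.41 without Brap F/F replicates 2 and 3 (limma adjusted p = 0.0819) and -0.27 without Brap F/F replicate 4. Saa1, serum amyloid A, was lowest at 344 and 377 in Brap F/F replicates 2 and 3 and highest at 11160 in replicate 4 (log2 fold change 0.47; limma adjusted p = 0.860), and its sign turned without replicate 2 (-0.30), without replicate 3 (-0.26), without both (-1.79), and with edgeR (-0.70) or DESeq2 (-0.71). Fgb, a fibrinogen chain and the most abundant by count, was between 101566 and 252512.

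None of 12 clock genes passed with limma, edgeR or DESeq2, 1 had an unadjusted p under 0.05, and the median was -0.02, or 0.13 without Brap F/F replicates 2 and 3. Nr1d1, a clock repressor, was at 2533, 2531, 1423 and 3410 normalized counts in Brap LKO and at 1464, 828, 1023 and 2535 in Brap F/F (log2 fold change 0.83; limma adjusted p = 0.304), with 0.29 without Brap F/F replicates 2 and 3. Npas2 was at no more than 12.5 in any liver (log2 fold change 0.54; limma adjusted p = 0.562), and Tef, the most abundant by count, was between 5833 and 8780. None of 4 Y chromosome genes passed with limma, edgeR or DESeq2, and their median was -0.01. Eif2s3y was the 1 with an unadjusted p under 0.05, between 993 and 1405 in Brap LKO and between 1531 and 1650 in Brap F/F, groups that did not overlap (log2 fold change -0.36, 95% confidence interval -0.60 to -0.11; limma adjusted p = 0.168). Uty was between 466 and 576 in the 8 livers.

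In bulk liver, fewer cells of a type and less RNA per cell cannot be told apart. Most fold changes of markers of other liver cells lay above 0, the direction of Socs2 and Igfbp7, and their part in those values was not tested. All 6 cholangiocyte markers lay above 0 with a median log2 fold change of 0.95, and 1 passed, Cftr (limma adjusted p = 0.0331, and 0.0402 without Brap F/F replicates 2 and 3). The call of Cftr was lost with the replicate number as a block (limma adjusted p = 0.0771), at an unchanged log2 fold change of 2.91. Of the 6, 5 had an unadjusted p under 0.05 and DESeq2 called 2, Cftr and Epcam. Of all tested genes 15.8% had such a p, DESeq2 called 4.07%, and 7375 of 15352 lay above 0. Their summed normalized counts were 1651, 1583, 1349 and 3015 in Brap LKO replicates 1 to 4 and 1028, 797, 718 and 1485 in Brap F/F replicates 1 to 4, mostly from Spp1, with Cftr at 0 in Brap F/F replicate 1. Brap LKO replicate 4, the liver with the most Bcl6 and the least Cish, was the highest for all 6.

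Of 7 stellate cell and fibroblast markers 6 lay above 0, with a median of 0.51, and 1 passed, Pdgfrb (limma adjusted p = 0.0494), which did not pass without Brap F/F replicates 2 and 3 (0.105), under quantile normalization (0.0681), at a minimum mean of 20 (0.0549) or at a pseudocount of 0.5 (0.0505), with log2 fold changes of 0.84 to 0.91 beside 0.91 in the main fit, and which passed with the animal series as covariate (0.0280) and at the same total (0.0211). Of the 7, 4 had an unadjusted p under 0.05 and DESeq2 called 3, Pdgfrb, Col1a1 and Col3a1, against 15.8% and 4.07% of all tested genes. Cftr and Pdgfrb were named after their values were seen. With 1 liver left out, 6 of the 8 fits ended the call of Cftr (limma adjusted p up to 0.134; log2 fold changes of 2.61 to 3.15) and 7 of the 8 that of Pdgfrb (up to 0.149; 0.78 to 1.03). In Brap F/F replicates 1 to 4 Cftr was at 0, 1, 2 and 1 reads. Its log2 fold change was therefore set partly by the pseudocount, at 3.37 with 0.5 and 1.62 with 5. The summed stellate and fibroblast counts were 9052, 7012, 10999 and 8918 in Brap LKO and 4663, 7658, 8211 and 5861 in Brap F/F, with Dcn the most abundant. Socs2 and Igfbp7 were also highest in Brap LKO replicate 3 and lowest in Brap F/F replicate 1, the livers at either end of that sum. Brap F/F replicates 2 and 3 had larger sums than Brap LKO replicate 2, with less Socs2 (136 and 301 against 446) and less Igfbp7 (1739 and 1761 against 2193). That order depends on the sum. The mean log2 deviation of the 7 markers, which weights them alike, was 0.36, -0.07, 0.57 and 0.42 in Brap LKO replicates 1 to 4. In Brap F/F replicates 1 to 4 it was -0.50, -0.38, -0.19 and -0.22, so Brap LKO replicate 2 was above these controls. A link of these markers to Socs2 or Igfbp7 was not tested.

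All 7 macrophage and monocyte markers lay above 0 with a median of 0.50, and their sums were 7959, 6936, 4583 and 5492 in Brap LKO and 4580, 4786, 4350 and 5838 in Brap F/F, with Clec4f the most abundant. All 7 lymphocyte markers lay above 0 with a median of 0.59, with sums of 597, 468, 377 and 537 against 375, 300.02, 263 and 323 and Ptprc the most abundant. All 6 sinusoidal endothelial markers lay above 0 with a median of 0.22, with sums of 7592, 5643, 6257 and 5167 against 4458, 5877, 6779 and 4651 and Stab2 the most abundant. None of these 3 lists held a gene past the threshold with limma or edgeR, while 3, 3 and 0 genes had an unadjusted p under 0.05 and DESeq2 called 2 (Ccr2 and Lyz2), 2 (Ms4a1 and Ptprc) and 0. The shares over all tested genes were 15.8% at that p and 4.07% with DESeq2. Without Brap F/F replicates 2 and 3 the endothelial median was 0.46 and 1 gene of that list passed with limma. Of 6 hepatocyte markers 1 lay above 0, with a median of -0.31, and of 4 tested proliferation markers 2 lay above 0, with a median of 0.07; 0 genes of either passed with limma, edgeR or DESeq2, and 1 and 0 had an unadjusted p under 0.05.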

How the data were processed

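The authors isolated RNA with TRIzol and a column, made NuGEN Universal Plus mRNA libraries, sequenced them single end, aligned reads to mm10 with STAR 2.6.0c and ran DESeq2. The counting tool, annotation release and use of strand are not given in the sources used here. The deposited signal is each gene's read count divided by the liver's size factor, for 24451 genes. Dividing by the value of 1 read gave whole numbers for 100% of values within 0.01, and these recovered reads went to edgeR 4.0.16 and DESeq2 1.42.0 as alternatives. A table of the authors' own fold changes and p-values was not used.

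limma 3.58.1 (R 4.3.3, eBayes with trend) was fitted to log2(normalized count + 1) for 15352 genes with a mean of at least 5 in 4 Brap LKO against 4 Brap F/F livers, without covariates. Fold changes are on that scale, which understates changes of low genes. Permutation tests of single genes enumerated 70 arrangements. The fits were tested on simulated data, and no result given here rests on that test.

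The members and lists were chosen with earlier results of these data known. Named were the 9 members, Brap and Alb. Of each list other than the cell markers the genes past the threshold were named, failing any the 2 with the largest fold change and the most abundant. Of marker lists, genes past the threshold or called by DESeq2 and mostly the most abundant were named, a choice made after the values were seen. For the 3 most variable members with a mean of at least 50, the 3 genes with the nearest liver profiles were named. The alternatives were other pseudocounts, minimum means, scalings, weights, a replicate block, the animal series, other tests, and leaving out livers. Positions and exon lengths come from GENCODE, which held 24430 of the genes. No 2 libraries of the same group agreed within sampling noise (chi-square of at least 13.1 per gene). Each liver comes from a separate animal. A count of 0 allows up to 3 reads, which covers counting error only.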

Additional observations from a re-analysis of the deposited data

Results flagged for a closer look

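Among 58 sets of 4 livers examined, 5 held a liver far from the others of its group. For independent sets chance would give about 1 in 20. That rate does not apply here, because many of the genes were named from these data and Onecut1 was chosen by nearness to Cish. Cish was at 1507 normalized counts in Brap F/F replicate 3, while the nearest liver of the group was at 390. Onecut1 was at 2448 in the same liver, with the nearest at 621. Cux2 was at 17.9 there, with the nearest at 35.6. Bcl6 was at 1750 in Brap LKO replicate 4, with the nearest at 356. Cftr was at 6.07 in Brap LKO replicate 3, with the nearest at 16.1. The reason for these values was not tested.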

How the results depend on the processing

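The sign of Igf1, Igfals and Socs2 held in all 21 alternatives. Axis genes past the threshold numbered 0, but 1 (Socs2) after scaling to the same total (1.67) and with DESeq2 (1.45). Scaling to the same total moved the median of all tested genes from -0.01 to 0.15. Genes higher in Brap LKO numbered 102, but 62 under quantile normalization, 459 at the same total, 185 with arrayWeights, 455 with DESeq2 and 11 to 178 when 1 liver was left out. Genes lower numbered 16, but 9 at a minimum mean of 20, 39 with arrayWeights, 170 with DESeq2, 48 without Brap F/F replicates 2 and 3, and 4 to 54 when 1 liver was left out. The cause of these shifts was not tested.

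Signs turned as follows, and the cause was not tested. Quantile normalization turned Ghr (0.071) and Brap (0.0082), and the same total turned Ghr (0.079) and Brap (0.086), both still below the median of all tested genes. The animal series as covariate turned Stat5b (-0.023), Cish (-0.44) and Bcl6 (0.22). edgeR turned Bcl6 (0.21) and Saa1 (-0.70), and DESeq2 turned Bcl6 (0.20) and Saa1 (-0.71). Leaving out Brap F/F replicates 2 and 3 turned Ghr (0.094), Stat5a (-0.018), Stat5b (-0.0036), Selenbp2 (-0.11), Lpin1 (0.12) and Saa1 (-1.79). With 1 liver left out the values crossed 0 for Ghr (-0.17 to 0.015), Stat5b (-0.053 to 0.051), Cish (-0.19 to 0.76), Bcl6 (-0.85 to 0.17), Cux2 (-0.40 to 0.065) and Saa1 (-0.30 to 1.37).

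Same-numbered livers of the 2 groups correlated at -0.13, 0.0034, 0.20 and 0.29, and livers with different numbers between -0.29 and 0.20. These values do not decide whether the replicate numbers pair the livers, and the main fit did not pair them. With the replicate number as a block 80 genes were higher and 15 lower, and 0 axis genes passed, nor did Htra1 (adjusted p 0.0508), Igfbp7 and Cftr (0.0771 each), at unchanged fold changes (1.64, 0.66 and 2.91), while Ntrk2 and Pdgfrb passed (0.0220 and 0.0219). Depth limits Cux2, with a mean of 30.4 normalized counts, and Gh. At a minimum mean of 20 neither Cftr nor Npas2 was tested, and without Brap LKO replicate 4 Npas2 was not tested either.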
